A study of Ursus arctos with 12 samples.

Results

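The muscle biopsies of brown bears held reads of 10 genes known from fat cells, ADIPOQ, LEP, DGAT2, THRSP, PLIN1, CIDEC, CIDEA, FABP4, APOE and MGST1, among the 30249 genes counted. These genes were selected on values measured in the same 12 libraries, their levels and seasonal differences, so their levels, their seasonal differences and their joint variation are descriptions here and carry no test. All 10 were found by their symbol and passed the filter of 30 reads summed over the libraries, which kept 17290 genes.

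RNA came from the vastus lateralis, a thigh muscle, of 6 free-ranging bears aged 2 to 3 years. Each bear was biopsied during winter hibernation in February and again in its active period in June of the same year, which gave 6 winter and 6 summer libraries. Bears are named by the number in their labels (1305, 1316, 1317, 1509, 1511 and 1512). A hibernating bear also fasts and rests for months, so the season compares fasting, inactivity, body fat and time of year together, and these cannot be told apart.

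Adipocytes store fatty acids as triglycerides in a large lipid droplet and secrete hormones such as adiponectin and leptin. In skeletal muscle they lie between the fibres and along the fascia, where they form intermuscular fat, and a biopsy can hold more or less of it. Bears fatten through summer and autumn and live on that fat in the den. Fatty acid synthesis in adipocytes is high after feeding and low in fasting.

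Between 20191068 and 27283155 reads were counted on genes per summer library and between 16742406 and 32140160 per winter library. Levels are given as CPM, a gene's reads per 1000000 reads of its library after edgeR's TMM scaling, or as log2 CPM with a prior count of 2. A fold change is winter over summer, with its standard error (SE). The libraries held muscle throughout, with 135555 to 217582 CPM summed over 14 genes of muscle fibres in summer and 138575 to 180134 in winter. No row carried the symbols MYH1, MYH2, MYH7 or MYL1, so the fibre list rested on ACTA1, CKM, TTN and other genes. With bulk RNA, fewer adipocytes in a biopsy and less of a transcript per adipocyte cannot be told apart.

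A single library stood apart. The summer library of bear 1316 held the highest level of 9 of 9 members other than LEP, and the winter library of the same bear held the lowest winter level of 7 of them. Among 11365 genes whose mean reached 1 log2 CPM, 23 (0.202%) were more than 5-fold above the median of the other 5 summer libraries in this library, and 7 of the 8 members at that level were among the 23. The median gene stood at 0.991-fold. The fitted seasonal difference of each member is therefore given with and without this library.

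ADIPOQ encodes adiponectin, the most abundant hormone that adipocytes secrete. In summer its level was 40.1 CPM in bear 1305, 348 in 1316, 25.6 in 1317, 13.1 in 1509, 39.1 in 1511 and 14.0 in 1512. In winter it was 30.6, 5.67, 19.9, 18.8, 148 and 41.4 CPM in the same order. The seasons overlapped across nearly their whole range. Bear 1316 held both the highest summer and the lowest winter level, and bear 1511 the highest winter level. ADIPOQ was lower in winter in 3 bears and higher in 3, and the summer mean of 5.21 ± 1.73 log2 CPM compares with a winter mean of 4.77 ± 1.54 (SD, n = 6 bears each). The fitted log2 fold change was −0.86 (SE 0.86) with all libraries and 0.73 (0.64) without the summer library of bear 1316, so its sign rested on that library.

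LEP encodes leptin, the adipocyte hormone that reports fat stores to the brain. It was close to the detection limit, with 4, 2, 0, 0, 1 and 0 reads in the summer libraries of bears 1305, 1316, 1317, 1509, 1511 and 1512 and with 3, 0, 8, 1, 19 and 14 in winter. Together this was 7 reads of 141125061 in summer and 45 of 135712081 in winter. A library with no read allows up to 3 reads, which is 0.117 to 0.132 CPM for the libraries at 0. LEP was the only member whose summer library of bear 1316 did not stand above the others. Most winter reads came from 3 bears, 1317, 1511 and 1512, and the fitted log2 fold change of 2.79 (SE 0.99), or 3.03 (1.10) without the summer library of bear 1316, rests on these few reads. Intervals and limits from reads cover counting error only.

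DGAT2 and THRSP belong to the making of fat. DGAT2 adds the last fatty acid to a triglyceride, and THRSP, known as Spot 14, is a nuclear protein of tissues that synthesise fatty acids. DGAT2 stood at 20.2, 254, 11.4, 5.14, 15.8 and 5.13 CPM in the summer libraries of bears 1305, 1316, 1317, 1509, 1511 and 1512, and at 2.29, 0.588, 0.845, 4.30, 5.23 and 2.60 CPM in winter. Each bear was lower in winter. The smallest difference was that of bear 1509, −0.25 on the log2 scale, and the seasons touched only where the winter library of bear 1511 reached the lowest summer libraries. THRSP was at 6.41, 94.9, 1.26, 2.15, 5.91 and 0.900 CPM in summer and at 0.286, 0.126, 0.225, 0.276, 1.26 and 0.293 CPM in winter, which in winter was only 3 to 21 reads a library. Its seasons met in the same way, at the winter library of bear 1511. The fitted log2 fold change of DGAT2 was −4.31 (SE 1.03) with all libraries and −2.14 (0.52) without the summer library of bear 1316. That of THRSP was −5.56 (1.25) and −3.06 (0.64), so both stayed lower in winter and the size was carried in part by that library.

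PLIN1, CIDEC and CIDEA coat the lipid droplet. PLIN1, perilipin 1, guards the droplet of adipocytes against lipases, and CIDEC and CIDEA let droplets fuse and grow. PLIN1 was at 6.34, 74.4, 4.91, 1.62, 5.83 and 2.11 CPM in summer and at 4.86, 2.27, 5.29, 2.65, 26.4 and 8.56 CPM in winter, in the order of bears above. It was higher in winter in 4 of 6 bears, and the fitted log2 fold change went from −0.93 (SE 0.89) to 0.99 (0.60) when the summer library of bear 1316 was left out. This is the pattern of ADIPOQ again, with bears 1316 and 1511 at opposite ends in opposite seasons.

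CIDEC ranged from 1.33 to 64.2 CPM in summer (median 4.35) and from 0.336 to 7.46 in winter (median 1.66). It was lower in winter in 4 of 6 bears, with a fitted log2 fold change of −2.43 (SE 0.95), or −0.42 (0.59) without the summer library of bear 1316. CIDEA, known for its role in brown fat of rodents and found in white fat of other mammals, ranged from 0.966 to 47.9 CPM in summer (median 2.68) and from 0.588 to 8.36 in winter (median 2.17). It was lower in 2 bears and higher in 4, and its log2 fold change of −1.74 (0.92) became 0.35 (0.55) without that library. Both genes overlapped between the seasons over most of their range.

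FABP4, APOE and MGST1 are less restricted to adipocytes. FABP4 binds fatty acids in adipocytes and also in capillary endothelium and macrophages, APOE is a lipoprotein component that macrophages make too, and MGST1 is a membrane-bound glutathione transferase of many cells. FABP4 was at 406, 889, 263, 311, 465 and 430 CPM in summer and at 186, 208, 236, 284, 277 and 239 CPM in winter. It was lower in winter in 6 of 6 bears, by 0.13 to 2.097 on the log2 scale, although the lowest summer library, that of bear 1317, lay within the winter range. The summer library of bear 1316 was 2.19-fold above the median of the other 5 for FABP4 and 13.6- to 44.1-fold above it for the other 8 members except LEP. The fitted log2 fold change of FABP4 was −0.95 (SE 0.24), and −0.65 (0.16) without that library.

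APOE was at 4.77, 52.8, 1.303, 2.77, 4.99 and 2.03 CPM in summer and at 5.84, 7.18, 4.28, 1.6, 11.97 and 5.21 CPM in winter. It was higher in winter in 4 of 6 bears, and the log2 fold change of −0.92 (SE 0.80) became 0.92 (0.44) without the summer library of bear 1316. MGST1 was at 4.23, 63.1, 4.08, 2.06, 3.63 and 2.07 CPM in summer and at 1.14, 0.882, 1.18, 1.38, 1.99 and 1.24 CPM in winter. MGST1 was the only member whose 6 winter libraries all lay below the 6 summer libraries. Its log2 fold change was −3.34 (0.87), or −1.31 (0.27) without that library.

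**Figure D1:**
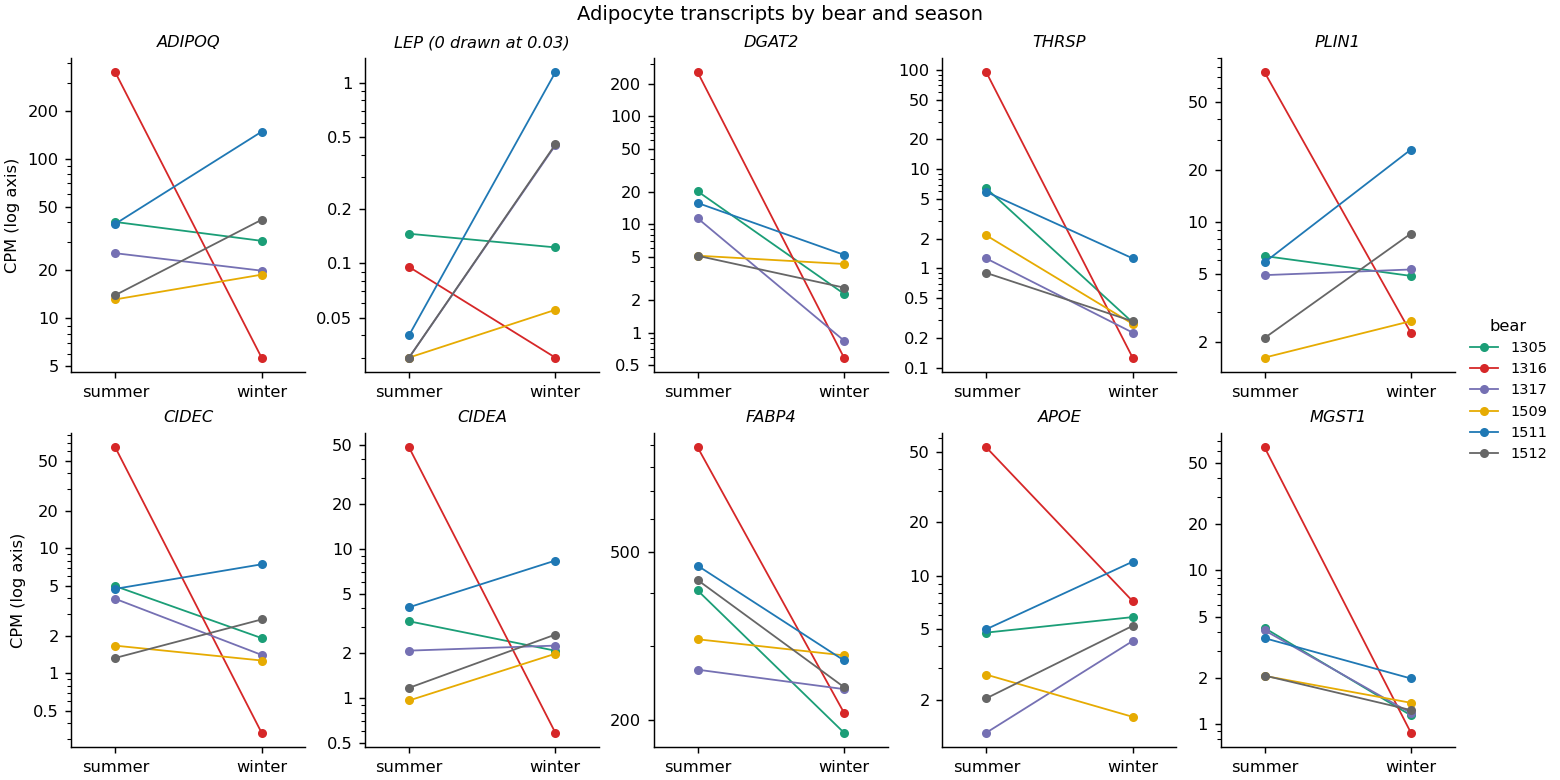
CPM (log axis) of the 10 adipocyte transcripts in the summer and winter library of each bear, with a line joining the libraries of a bear. Bear 1316 (red) starts highest in summer for every gene but LEP and drops steeply, ADIPOQ from 348 to 5.67 CPM, while bear 1511 (blue) is the highest winter library for 8 of the 9 genes other than LEP.

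Counted together, 4 of 10 members (DGAT2, THRSP, MGST1 and FABP4) were lower in winter in 6 of 6 bears, beside 19% of the 17290 genes tested. Of the 10, 1 had all winter libraries below all summer libraries, beside 8.21% of genes. The members were chosen with this contrast known, so nothing is read from these shares. The fitted log2 fold change kept its sign without the summer library of bear 1316 for DGAT2, THRSP, MGST1, FABP4, CIDEC and LEP and turned for ADIPOQ, PLIN1, CIDEA and APOE.

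**Figure D2:**
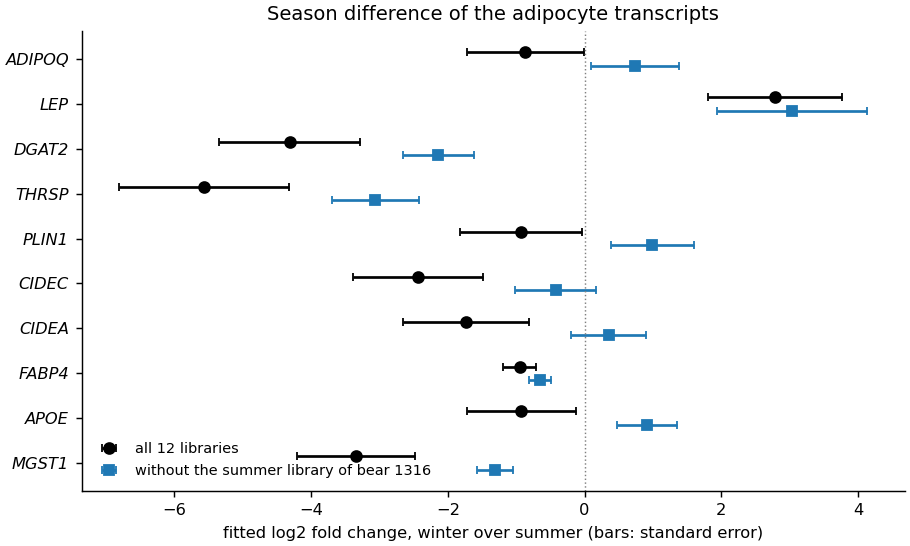
Fitted log2 fold change, winter over summer, of each adipocyte transcript with its SE, from all 12 libraries (black circles) and without the summer library of bear 1316 (blue squares). DGAT2, THRSP, MGST1 and FABP4 lie left of 0 in both fits, LEP lies right of 0 in both, and ADIPOQ, PLIN1, CIDEA and APOE cross 0.

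The bear can also enter the fit as a replicate block, since each animal gave a biopsy in both seasons. In edgeR with this block the log2 fold change was 0.0011 (SE 0.70) for ADIPOQ, 0.21 (0.78) for PLIN1, 0.21 (0.54) for APOE and −0.22 (0.80) for CIDEA. For DGAT2 it was −2.62 (0.85), for THRSP −4.00 (0.85), for MGST1 −1.89 (0.63), for CIDEC −1.07 (0.85), for FABP4 −0.84 (0.23) and for LEP 2.54 (1.00). The paired values thus lay between those with and without the summer library of bear 1316 for every member except LEP.

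The summed level differed widely between biopsies of a season. Summed over the members without FABP4, the summer library of bear 1316 held 999 CPM against 28.7 to 90.5 in the other summer libraries, and winter libraries held 17.6 to 211. FABP4 made up 47.1% of the members' summed CPM in the summer library of bear 1316, 56.7% in the winter library of bear 1511 and 78.6 to 93.7% in the other 10. The 2 libraries richest in the other members were thus the 2 where FABP4 weighed least.

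For a gene made by adipocytes alone, its reads per PLIN1 read of the same library describe the mix of adipocyte transcripts rather than their amount. For a gene that other cells make too, such as MGST1, FABP4 or APOE, the ratio also varies with the amount of adipocyte RNA. PLIN1 was taken as the reference after the values had been seen, and ADIPOQ was used as a second one. ADIPOQ itself gave 4.68 to 8.08 reads per PLIN1 read in summer (median 6.47) and 2.5 to 7.08 in winter (median 5.21). These ratios overlapped between the seasons, although the ratio was lower in winter in 6 of 6 bears. The summer library of bear 1316, at 4.68, was the lowest of summer and lay within the winter range. CIDEA overlapped too, at 0.425 to 0.699 reads per PLIN1 read in summer and 0.259 to 0.750 in winter.

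For 4 members the seasons did not overlap per PLIN1 read. No share over all genes is given for reads per PLIN1 or ADIPOQ read. The members were also chosen with this contrast known, so nothing is read from the count. DGAT2 gave 2.32 to 3.41 reads per PLIN1 read in the 6 summer libraries (median 2.93) and 0.160 to 1.63 in the 6 winter libraries (median 0.282), so the summer median was 10.4-fold the winter median. THRSP gave 0.257 to 1.32 in summer (median 1.01) and 0.0342 to 0.104 in winter (median 0.0517), a 19.6-fold difference of medians. CIDEC gave 0.630 to 1.03 against 0.148 to 0.479, 2.71-fold between medians, and MGST1 0.623 to 1.27 against 0.0752 to 0.521, 3.66-fold. The ratios of these 4 were lower in winter in each bear. MGST1 is made by many cells, and its winter ratio was lowest, at 0.0752, in bear 1511, which held the most PLIN1 of winter. The part of adipocytes in the MGST1 difference was not tested.

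In the summer library of bear 1316 the DGAT2 ratio of 3.41, the highest of summer, and the THRSP ratio of 1.28 lay near those of bear 1509, 3.16 and 1.32, whose summed level was among the lowest of summer. The closest approach of the seasons for DGAT2 was the winter library of bear 1509, with 78 reads against 48 of PLIN1 (ratio 1.63, 95% interval 1.12 to 2.38 from exact binomial counting error), and the summer library of bear 1317, with 262 against 113 (2.32, interval 1.85 to 2.92). The intervals of these libraries overlapped. THRSP in winter rested on 3 reads in bear 1316 (ratio 0.0556, interval 0.0111 to 0.171) and on at most 21, in bear 1511 (0.0478, interval 0.0293 to 0.0740). Its seasons came closest at winter 1509, on 5 reads (0.104, interval 0.0324 to 0.260), and summer 1317 (0.257, interval 0.164 to 0.389). For CIDEC the closest intervals were 0.278 to 0.803 (winter 1509) and 0.397 to 0.985 (summer 1512). For MGST1 they were 0.308 to 0.862 (winter 1509) and 0.474 to 0.815 (summer 1511). The intervals overlapped for these 3 genes too.

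Set against ADIPOQ in place of PLIN1, DGAT2, THRSP and CIDEC again did not overlap between the seasons. DGAT2 then gave 0.367 to 0.729 reads per ADIPOQ read in summer, highest in bear 1316, and 0.0355 to 0.229 in winter. MGST1 gave 0.0930 to 0.181 in summer and 0.0135 to 0.156 in winter, and here the seasons overlapped. APOE, FABP4 and LEP overlapped by both references. FABP4 spanned 11.96 to 203 reads per PLIN1 read in summer and 10.5 to 107 in winter with the lowest values in the 2 libraries richest in the other members.

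**Figure D3:**
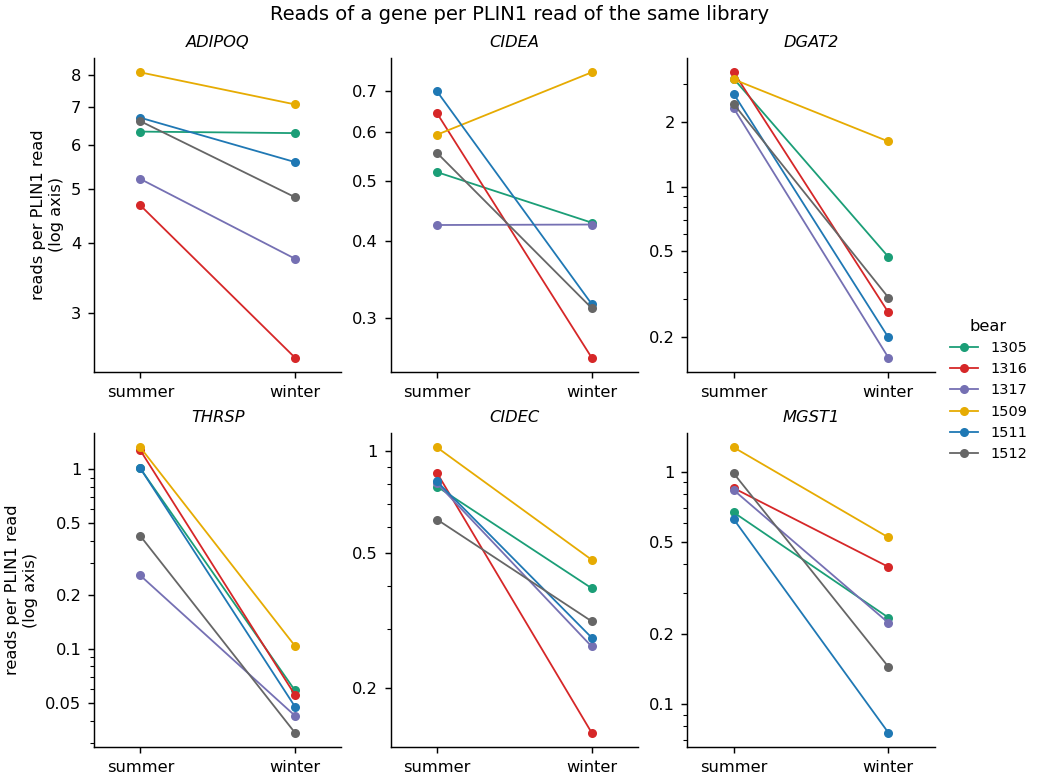
Reads of 6 genes per PLIN1 read of the same library (log axes), by bear and season. ADIPOQ and CIDEA overlap between the seasons. DGAT2 (summer 2.32 to 3.41, winter 0.160 to 1.63), THRSP, CIDEC and MGST1 are lower in winter in every bear without overlap of the plotted ratios. Counting error is not drawn.

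The members varied together from library to library. Over the 6 summer libraries the Pearson correlation of log2 CPM had a median of 0.933 over the 45 pairs of members (0.568 to 0.999), and over the 6 winter libraries 0.776 (−0.281 to 0.997). With each season's mean removed, the median over the 12 libraries was 0.829, and 0.730 without bear 1316. Spearman's rho, which a single extreme library moves less, had medians of 0.812, 0.657 and 0.692 in summer, in winter and with season means removed. These are descriptions over few libraries whose members share depth, scaling and the biopsy.

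ADIPOQ and PLIN1 correlated at 0.996 in summer and 0.940 in winter. DGAT2 followed PLIN1 at 0.996 in summer and at 0.554 in winter, when bear 1511 held the most PLIN1 but little more DGAT2 than bear 1509. In winter APOE and FABP4 kept least with the rest, and their correlation with each other was −0.281. Without these 2 genes the median over pairs was 0.978 in summer and 0.902 in winter.

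**Figure D4:**
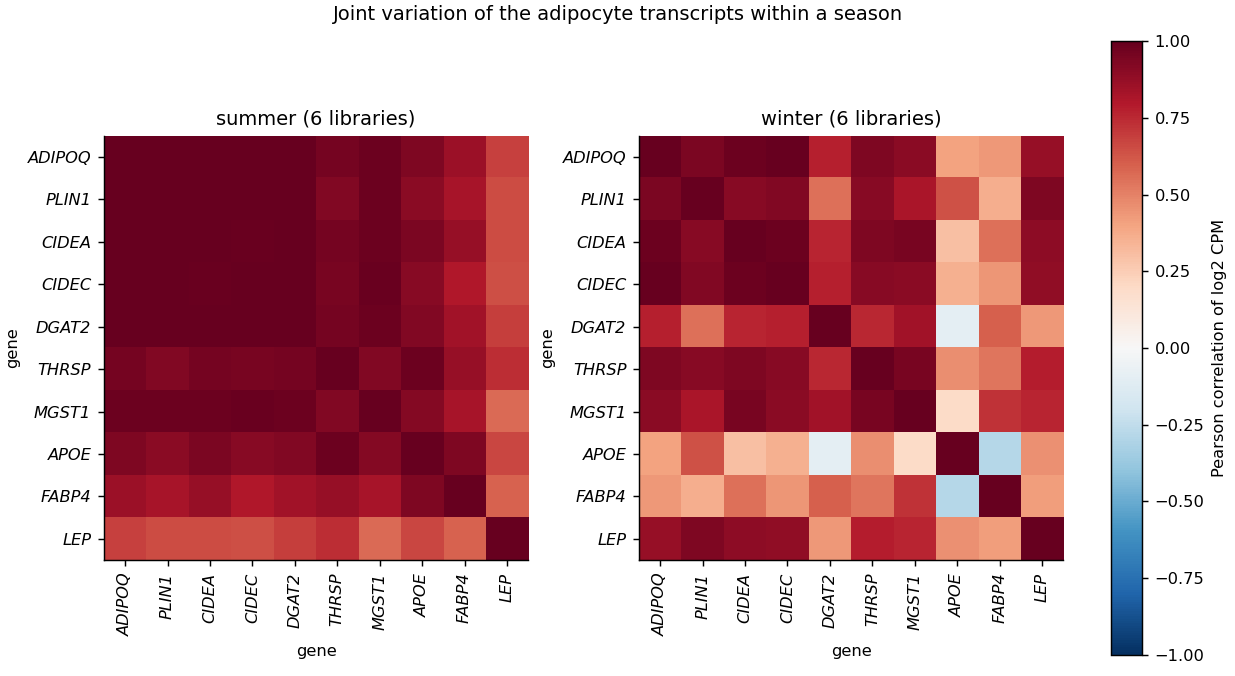
Pearson correlation of log2 CPM between the adipocyte transcripts over the 6 summer (left) and the 6 winter libraries (right), coloured from −1 to 1. In summer every pair is positive (median 0.933), while in winter (median 0.776) APOE, FABP4 and DGAT2 stand out with weaker correlations, down to −0.281 for APOE with FABP4.

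The order of the libraries repeated from gene to gene. In summer, bear 1316 was the highest for 9 of 9 members other than LEP, bear 1305 was next for 6 of them and bear 1511 for the other 3. Bears 1509 and 1512 were among the lowest 2 for 7 and 8 of the 9. In winter, bear 1511 was highest for 8 of 9 and bear 1512 next for 5, and bear 1316 was lowest for 7. Bear 1511 thus stood high in both seasons, bear 1316 went from the top to the bottom, and bear 1512 went from near the bottom to near the top.

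Among 10336 other genes with a symbol, a read in every library and a mean reaching 1 log2 CPM, those closest to the mean of the standardised members with season means removed were PRXL2A (Pearson 0.925 over 12 libraries) and TKT (0.918), which encodes transketolase of the pentose phosphate pathway. GAMT, FDPS, EMC9, PCBD2, POLR1E, DUSP28, RUFY4 and APOPT1 followed at 0.878 to 0.861. With season means kept, PRXL2A (0.906) and TKT (0.885) led again, followed by PPARG (0.879), the transcription factor that adipocytes need to form, and by DUSP28, PRADC1, CSAD, PCBD2, GDE1, MRPS15 and LAMTOR2. This order turned on the summer library of bear 1316. Without it the closest genes were FAM78A (0.904 over 11 libraries), SFRP4 (0.900), IGFBP6, ISLR, PDGFRL, CLEC3B, GLDN, THBS3, RAB34 and ESR1, none of which was in either of the first lists.

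Other genes of adipocytes were read from a list of 30 symbols that holds no member. Of these, 23 were tested, 5 had under 30 reads (ADRB3, SLC7A10, MRAP, SLC19A3 and SERPINA12) and no row carried AOC3 or TUSC5, the latter an older name of TRARG1, which was tested. In edgeR's quasi-likelihood test at an adjusted p below 0.05, 6 of 23 fell in winter and 1 rose, beside 19.9% of all genes that fell and 19.6% that rose. The median log2 fold change of the list was −0.74, against −0.0022 over all genes. Without the summer library of bear 1316, 5 fell and 4 rose, beside 19.7% and 19% of all genes, and the median was −0.21. The shares over all genes are the background for each list that follows. This list and those that follow were written with earlier results of these data known, so their counts are descriptions and not independent support.

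LGALS12, a galectin of adipocytes that sits on lipid droplets, fell by 3.55 on the log2 scale (SE 0.96, adjusted p = 0.00991, lower in 6 of 6 bears). Without the summer library of bear 1316 it fell by 1.59. It was called in 23 of 25 other settings (adjusted p 0.00176 to 0.0864), the exceptions being limma voom and the fit without both libraries of bear 1316. ACVR1C, the activin receptor ALK7, fell by 1.84 (0.44, adjusted p = 0.00459, 6 of 6 bears). It rested on 108 reads summed over the libraries, with 0.0420 to 0.241 CPM in winter. PCK1, the enzyme that adipocytes use to make glycerol for triglycerides, fell by 2.98 (1.09, adjusted p = 0.0412) but in only 3 of 6 bears. It was called in only 13 of 26 other settings (adjusted p 0.0235 to 0.354), at 0.117 with the replicate block and 0.247 without the summer library of bear 1316. The call was also lost without the summer library of bear 1511 or the winter library of bear 1305, 1316, 1317, 1509 or 1511. TNMD, tenomodulin, differed by −2.61 (1.16, adjusted p = 0.0865, lower in 6 of 6 bears) and was called lower with the replicate block (adjusted p = 0.00136). In the summer library of bear 1316 TNMD stood at 0.368 times the median of the other summer libraries.

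AQP7, the glycerol channel, fell by 1.73 (SE 0.32, adjusted p = 0.000946), LIPE, hormone-sensitive lipase, by 1.16 (0.30, adjusted p = 0.0077) and GPD1, which makes glycerol 3-phosphate, by 0.78 (0.20, adjusted p = 0.0074), each in 6 of 6 bears. These 3 are also transcribed in muscle fibres, and in the summer library of bear 1316 they stood at 0.911, 1.36 and 0.828 times the median of the other summer libraries, unlike the members. TRHDE, the peptidase that degrades thyrotropin-releasing hormone, rose by 1.35 (0.41, adjusted p = 0.0189) in 6 of 6 bears, and was not called without bear 1317 or bear 1511 (adjusted p 0.0056 to 0.065 in all settings). Without the summer library of bear 1316, PNPLA3, ADIRF and PDE3B were called higher too, at log2 fold changes of 1.51, 1.44 and 0.98.

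The defining adipocyte regulators did not pass the test. PPARG differed by −0.59 on the log2 scale (SE 0.33, adjusted p = 0.163, lower in 4 of 6 bears) and CEBPA by −0.56 (0.74, adjusted p = 0.57, lower in 4). Without the summer library of bear 1316 PPARG was at −0.14 (adjusted p = 0.614) and CEBPA turned to 0.64 (adjusted p = 0.407). In the summer library of bear 1316 PPARG was 3.31-fold and CEBPA 9.26-fold above the median of the other 5 summer libraries. RBP4, a retinol carrier that adipocytes secrete, was 29.1-fold above it, at 26.6 CPM, and LGALS12 22.2-fold. Of the 23 genes of the list, 9 were more than 5-fold above it.

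**Figure D5:**
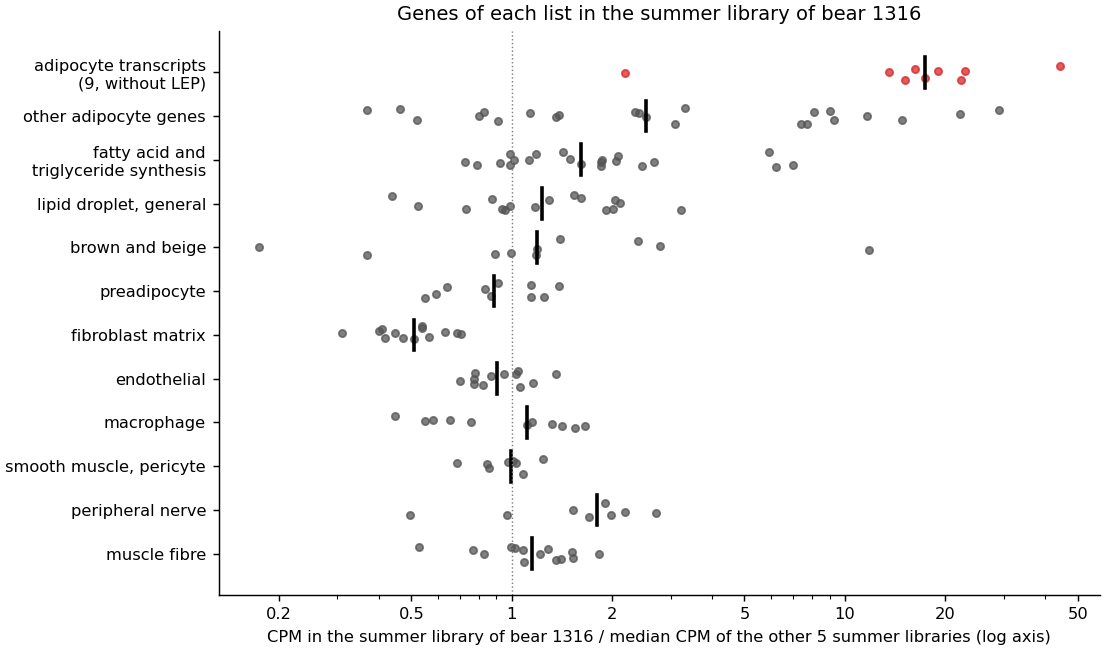
CPM in the summer library of bear 1316 divided by the median CPM of the other 5 summer libraries (log axis) for the genes tested in each list, with the median of the list as a black bar. Of the 9 adipocyte transcripts without LEP, 8 (red) lie between 13.6 and 44.1. Above 5 lie 9 other adipocyte genes, 3 genes of fatty acid synthesis and 1 brown and beige gene, TBX1, at 11.8. The other lists drawn centre between 0.509 (fibroblast matrix) and 1.80 (peripheral nerve).

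Fatty acid and triglyceride synthesis was read from a further list of 23 symbols, of which 21 were tested and AGPAT2 and MOGAT2 had under 30 reads. In winter 15 of 21 fell and 1 rose, with the same counts without the summer library of bear 1316 and with the replicate block. The median log2 fold change was −0.91, and −0.77 without that library. FASN, fatty acid synthase, fell by 2.71 (SE 0.62, adjusted p = 0.0036, 6 of 6 bears), ELOVL6, an elongase, by 2.39 (0.64, adjusted p = 0.00894, 6 of 6 bears) and FADS1, a desaturase, by 1.91 (0.39, adjusted p = 0.0017, 6 of 6 bears). Without the summer library of bear 1316 FASN fell by 1.77, ELOVL6 by 1.56 and FADS1 by 1.75. ACACA, acetyl-CoA carboxylase, fell by 1.89 (0.55, adjusted p = 0.0148) in 5 of 6 bears and by 0.79 without it. ACACA was called in 23 of 25 other settings (adjusted p 0.00717 to 0.0654), the exceptions being DESeq2 with the replicate block and limma voom.

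SREBF1, the transcription factor of fatty acid synthesis, moved the other way and rose by 1.62 (SE 0.45, adjusted p = 0.0114) in 5 of 6 bears. In the summer library of bear 1316, ACACA was 6.97-fold, FASN 6.22-fold and ELOVL6 5.92-fold above the median of the other summer libraries. Muscle fibres transcribe several genes of this list too, among them ACACB, which fell by 1.04 (0.19, adjusted p = 0.000823) and stood at 0.726-fold in that library.

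A second look at proportions used the 12 genes of both lists that were more than 5-fold above the other summer libraries in the summer library of bear 1316, a choice made after the values had been seen. Per PLIN1 read, 10 of the 12 had a lower median in winter. The library used for the choice is also among the summer libraries compared, and no share over all genes is given. This count is therefore a description and no support for a seasonal difference. RBP4 (summer 0.186 to 0.466, winter 0.0370 to 0.141) and LGALS12 (0.103 to 0.405 against 0.0213 to 0.0833) did not overlap between the seasons. Both rested on few reads, with only 2 in their lowest library. FASN gave 1.79 to 14.6 in summer and 0.522 to 2.65 in winter and overlapped, as did the other 9. Where other cells transcribe a gene too, its ratio also varies with the amount of adipocyte RNA. CEBPA stayed near 0.201 and 0.189 at the medians.

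Lipid droplet proteins and lipases that muscle fibres also make gave 4 lower and 2 higher of 16 genes tested, shares near those over all genes, with a median log2 fold change of 0.0074. LPL, lipoprotein lipase, fell by 1.78 (SE 0.25, adjusted p = 0.000113), FITM1 by 1.13 (0.18, adjusted p = 0.000307) and ABHD5, the activator of adipose triglyceride lipase, by 0.51 (0.13, adjusted p = 0.00686), each in 6 of 6 bears. FABP3, the fatty acid binding protein of muscle, fell by 0.81 (0.28, adjusted p = 0.0349) in 5 bears. PLIN5, the perilipin of oxidative tissue, rose by 0.75 (0.25, adjusted p = 0.0284) in 5 bears and CIDEB by 1.41 (0.49, adjusted p = 0.0356) in 6. Leaving out single libraries ended these last 3 calls in several cases. FABP3 was called in 17 of 26 other settings (adjusted p 0.00468 to 0.133), PLIN5 in 18 of 26 (0.00318 to 0.11) and CIDEB in 11 of 25 (0.0169 to 0.112), the last also not without the summer library of bear 1316. CIDEB lay at 0.0878 to 1.02 CPM, and PLIN2 did not pass (0.17, SE 0.23, adjusted p = 0.582).

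Brown and beige adipocytes burn fat through UCP1, the uncoupling protein that defines them. UCP1 had 3 reads in all 12 libraries, and no row carried COX7A1 or COX8B. Of 10 genes tested, 3 rose and 3 fell, with a list median of −0.16. ELOVL3 rose by 2.31 (SE 0.55, adjusted p = 0.00445), TNFRSF9 by 1.23 (0.13, adjusted p = 1.71e-05) and CPT1B, the carnitine transferase of muscle, by 0.64 (0.14, adjusted p = 0.00306), each in 6 of 6 bears. ELOVL3 rested on 94 reads summed over the libraries and reached at most 0.219 CPM in summer. TBX1 fell by 3.38 (1.12, adjusted p = 0.0269) in 4 bears, DIO2 by 1.55 (0.43, adjusted p = 0.0117) in 5 and PRDM16 by 1.41 (0.51, adjusted p = 0.0394) in 5. PRDM16 rested on 63 reads summed over the libraries. With the replicate block 1 of 10 fell, since TBX1 (adjusted p = 0.102, 0.0066 to 0.48 in all settings) and PRDM16 (0.054, 0.0166 to 0.206) were not called. TBX1 was also lost without the summer library of bear 1305 or the winter library of bear 1512, DIO2 without bear 1317 (0.0541), and PRDM16 was called in only 8 of 25 other settings.

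Genes of other cell types around the adipocyte were read from further lists. Fewer cells and less transcript per cell cannot be told apart there either. Of 13 fibroblast matrix genes, 11 fell in winter and none rose, with a median log2 fold change of −2.85. The largest falls were COL1A1 (−4.59, SE 0.69, adjusted p = 0.000203), COL3A1 (−4.17, 0.75, adjusted p = 0.000748), POSTN (−3.81, 0.66, adjusted p = 0.000586) and COL1A2 (−3.74, 0.56, adjusted p = 0.000203), each in 6 of 6 bears. With the replicate block all 13 fell. Their summed level was 6673 CPM in the summer library of bear 1316, 7359 to 17301 in the other summer libraries and 618 to 2905 in winter. The library richest in adipocyte transcripts was therefore the poorest summer library in these, with 10 of 13 at their summer minimum.

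Of 10 genes of preadipocytes and fibroadipogenic progenitors, 3 fell in winter, PI16 by 1.72 (SE 0.44, adjusted p = 0.0075), DPP4 by 1.28 (0.28, adjusted p = 0.0025) and CD34 by 0.91 (0.12, adjusted p = 9.22e-05), each in 6 of 6 bears, and the list median was −0.34. PDGFRA, which marks these progenitors, did not pass (−0.49, SE 0.21, adjusted p = 0.0771), but was called lower in 4 of 26 other settings, among them the fit without the summer library of bear 1316 (−0.59, adjusted p = 0.0334). DLK1 had 1 read in all, and no row carried CCN5, a newer name of WISP2, which was tested. The list's median in the summer library of bear 1316 was 0.887-fold that of the other summer libraries.

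FABP4 and APOE are also made by endothelium and macrophages, so these lists bear on them. Of 12 endothelial genes, 6 fell and 2 rose in winter, with a median log2 fold change of −0.28. VWF fell by 1.28 (SE 0.15, adjusted p = 3.69e-05), CDH5 by 1.03 (0.14, adjusted p = 0.000111), KDR by 0.98 (0.16, adjusted p = 0.000307) and EMCN by 0.65 (0.15, adjusted p = 0.00309), each in 6 of 6 bears. PECAM1 fell by 0.42 (0.15, adjusted p = 0.0415) in 5 bears, ERG rose by 0.46 (0.11, adjusted p = 0.00383) in 6 and CLDN5 by 0.81 (0.27, adjusted p = 0.0295) in 5. PECAM1 was called in 15 of 26 other settings (adjusted p 0.00469 to 0.105) and CLDN5 in 16 (0.00489 to 0.107). The summed endothelial level was 773 CPM in the summer library of bear 1316, 866 to 1103 in the other summer libraries and 583 to 656 in winter. FABP4 thus moved in the same direction by season as the endothelial sum but not in that library, and the part of endothelium in its difference was not tested.

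Of 11 macrophage genes tested, 8 fell and none rose, and the list median was −0.84. The count of falls was 5 without the winter library of bear 1305 or of bear 1512, and without bear 1305 or bear 1317. MSR1 was lower by 2.64 (SE 0.40, adjusted p = 0.000232), C1QB by 2.29 (0.34, adjusted p = 0.000203), C1QC by 2.20 (0.28, adjusted p = 7.26e-05) and C1QA by 1.63 (0.28, adjusted p = 0.000613), each in 6 of 6 bears. The defining markers CD68 (−0.84, SE 0.38, adjusted p = 0.0876) and CD163 (−0.45, 0.27, adjusted p = 0.204) did not pass, and MARCO had 17 reads in all. Their summed level was 120 CPM in the summer library of bear 1316, 108 to 173 in the other summer libraries and 46.5 to 97.5 in winter. APOE without that library was higher in winter while these genes were lower, and their part in its level was not tested.

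Among the remaining lists, 4 of 8 genes of smooth muscle and pericytes fell and none rose (list median −0.59), led by CNN1 (−1.44, SE 0.39, adjusted p = 0.0103), RGS5 (−1.37, 0.18, adjusted p = 9.04e-05), KCNJ8 (−1.11, 0.16, adjusted p = 0.000154) and CSPG4 (−0.69, 0.21, adjusted p = 0.0169), each in 6 of 6 bears, with CSPG4 not called without bear 1509 or bear 1511 (adjusted p 0.00429 to 0.0697 in all settings). Without bear 1305, or its winter library alone, 7 of the 8 fell. Of 8 peripheral nerve genes 1 fell, S100B by 1.03 (0.35, adjusted p = 0.0322) in 5 bears (list median −0.26), and none was called without the summer library of bear 1316, where S100B was 2.71-fold above the others. S100B was called in 16 of 26 other settings (adjusted p 0.000488 to 0.15). S100B is a transcript of adipocytes too. Of 3 red cell genes EPB42 fell, by 3.95 (0.88, adjusted p = 0.00308), and the list median was −0.86. The winter median of EPB42 was 0 CPM. HBM, SLC4A1 and HEMGN had 12, 12 and 1 reads and no row carried HBB or HBA.

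Of the 14 muscle fibre genes, 5 fell and 2 rose, with a median log2 fold change of −0.22. MB, myoglobin, fell by 1.01 (SE 0.18, adjusted p = 0.000639), ACTA1 by 0.90 (0.28, adjusted p = 0.0212), PYGM by 0.79 (0.18, adjusted p = 0.0032) and ACTN3 by 0.75 (0.20, adjusted p = 0.00909), while TTN rose by 0.65 (0.15, adjusted p = 0.0036) and NEB by 0.53 (0.14, adjusted p = 0.00805). All but ACTA1, lower in 5 bears, moved alike in 6 of 6 bears. ACTA1 was not called without bear 1305, 1316 or 1509 (adjusted p 0.00355 to 0.0834 in all settings). In the summer library of bear 1316 the list's median was 1.15-fold that of the other summer libraries. Its genes lay on both sides there, with MYL2 at 0.528-fold and TNNI1 at 0.767-fold, and TNNI2 at 1.53-fold and ACTA1 at 1.83-fold.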

How the data were processed

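The authors prepared stranded mRNA libraries from vastus lateralis biopsies and sequenced single reads of 50 bases in 2 lanes that the labels do not assign to libraries, so a lane effect was not tested. Reads were aligned to the brown bear assembly ASM358476v1 with TopHat2 2.1.1, alignments with over 3 mismatches were dropped, and featureCounts 1.6.2 counted reads per gene by strand. The values deposited by the authors are these raw counts, neither normalised nor filtered. RefSeq lists all 10 members as protein coding, with no sequences used here.

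The members and all gene lists were chosen with earlier results of these data known, so the members carry no p and the list counts are not independent of these data. A gene needed 30 reads summed over all libraries. The season fit across all genes used edgeR 4.0.16 in R 4.3.3 (TMM, glmQLFit, glmQLFTest, season as the only term, Benjamini-Hochberg adjustment, called at 0.05). Lists were described by their counts and medians, with those over all genes given once as the background. Text names all members, up to 4 called genes in each direction per list, defining markers, list genes under the filter and the 10 genes most alike in each version. The version of the last without the summer library of bear 1316, the reads per PLIN1 or ADIPOQ read and the 12 genes followed by that ratio were chosen after seeing the data.

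The other settings were RLE normalisation, library totals, no filter, filterByExpr, DESeq2 1.42.0 with and without the bear as a replicate block, edgeR with that block, limma voom (limma 3.58.1), a stricter threshold, and each bear and each library left out. A bear's libraries pair the seasons because they come from the same animal. Centred on its season, a bear's summer library correlated with its winter library at 0.0903 to 0.344 (median 0.237). Over 30 pairs of different bears the range was −0.214 to 0.142 (median −0.0634), so the ranges overlapped. Libraries of a season differed by a chi-square per gene of at least 44.4. No sample was left out except where a value says so.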

Additional observations from a re-analysis of the deposited data

Results flagged for a closer look

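Members were examined further where the gap between the highest or lowest library of a season and its nearest neighbour, divided by the range of the 6 libraries, exceeded Dixon's 95% critical value. Of 38 groups examined 9 did so. The groups share libraries and the members were chosen with these values known, so the critical value is a flag here and not a test. The summer library of bear 1316 was the highest in 8 of the 9, with a ratio of 0.66 for ADIPOQ, 0.65 for DGAT2, 0.649 for PLIN1, 0.665 for CIDEC, 0.64 for CIDEA, 0.794 for MGST1, 0.644 for APOE and 0.677 for the members' summed CPM without FABP4. THRSP, FABP4 and LEP did not pass in summer. In winter the library of bear 1511 was the highest for THRSP, with a ratio of 0.686, on 21 reads.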

How the results depend on the processing

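The seasonal differences of the members depended on bears 1316 and 1511. On leaving out each bear or library in turn, the log2 fold change ranged from −1.92 to 0.97 for ADIPOQ, −4.80 to −1.92 for DGAT2, −6.41 to −2.86 for THRSP, −1.90 to 1.19 for PLIN1, −3.29 to −0.18 for CIDEC, −2.52 to 0.57 for CIDEA, −3.69 to −1.22 for MGST1, −1.39 to 0.92 for APOE, −1.09 to −0.61 for FABP4 and 2.04 to 3.72 for LEP. For the first 8 of these genes the lowest values were those without bear 1511 and the highest those without bear 1316 or its summer library. With the replicate block, DGAT2 was at −2.62 in edgeR and −2.60 in DESeq2, MGST1 at −1.89 and −1.73, and in DESeq2 THRSP was at −3.39 and CIDEA at −0.054. In limma voom MGST1 was at −1.96. ADIPOQ and PLIN1 turned sign with the block in both tools, and APOE with the block and in limma voom.

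Of the other adipocyte genes, 0 to 4 were called higher in winter on leaving out a bear or library, 2 in limma voom and 0 at an adjusted p below 0.01 with a fold change above 1.3 or below 0.77. At that threshold no gene of fatty acid and triglyceride synthesis was called higher, while DESeq2 with the replicate block called 2, and over all genes 2077 rose and 2080 fell. In edgeR and DESeq2 the replicate block moved by over 1.5 times the falls in brown and beige genes, from 3 to 1, and in nerve genes, from 1 to 2. In DESeq2 it also moved the rises in lipid droplet genes from 2 to 1 and in progenitor genes from 0 to 1. On leaving out a bear or library, rises in lipid droplet genes ranged from 0 to 2, and falls from 1 to 3 in brown and beige, 5 to 9 in macrophage, 3 to 7 in smooth muscle and 0 to 2 in nerve genes. The median correlation of the members stayed between 0.730 and 0.888. Winter THRSP and LEP are limited by depth, at 3 to 21 and 0 to 19 reads a library.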
